A study of Eptatretus atami with 13 samples.

Results

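In the gene table of the brown hagfish *Eptatretus atami*, a jawless vertebrate, 2282 gene models had a single exon entry, at least 20 counts summed over 13 organ libraries and a place on a scaffold holding 100 or more models. They were chosen from 37562 models by exon number and by counts, so that the counts themselves were part of the choice and their levels are given as a description. They are set against the 18327 models that met the same limits on counts and scaffolds and have 2 or more exon entries. Together 20609 models were compared, and single-exon models were 11.1% of them. The 19 scaffolds in question belong to 17 chromosomes.

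Most vertebrate genes are interrupted by introns, which are removed from the transcript by splicing. Intronless genes are a minority with a few known sources. Some families, such as many G protein-coupled receptors, histones and a number of developmental transcription factors, carry their coding sequence in one exon. Others are retrocopies, made when a spliced messenger RNA is copied back into DNA by the enzymes of mobile elements, and the proteins of the mobile elements themselves are often encoded without introns. A gene annotation also holds single-exon models that are pieces of longer genes, such as an untranslated end that was not joined to its coding exons, and the counts alone cannot tell these apart.

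The libraries came from wild-type animals, with 1 library for each of brain, liver, gall bladder, kidney, intestine, ovary, heart, skeletal muscle of the tongue, gills, skin, slime gland, blood cells and adipose tissue. The labels name no age and no agent, and give normal embryonic development as the treatment of every sample. With 1 library per organ no value below has a replicate error and no test between organs was made. Gene models of one set are not replicates either, so the single-exon and multi-exon sets are compared as shares and medians without a p-value. A low level in an organ cannot be told apart from a small number of expressing cells in it.

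The smallest library, gills, had 18800367 assigned counts and the largest, tongue muscle, 39077785. Levels are given as FPKM, a count divided by the exon length of the model and by the total of its library on the usual scale. The library labelled adipose tissue stood close to brain. The neurofilament gene *NEFM* had 931 FPKM in adipose tissue and 899 FPKM in brain, and the fat cell marker *ADIPOQ-1* had 0.337 FPKM in adipose tissue, below its 3.43 FPKM in gills. Of the 1104 single-exon models with at least 1 FPKM in adipose tissue or brain, 795 (72.0%) had levels within 2-fold of each other in the 2 libraries. The main results on organs are therefore given with and without the adipose library. The markers *LCT-1* for intestine and *SERPINF1-3* for liver were highest in the organ of their label.

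Few single-exon models were left by the minimum of counts. On the 19 scaffolds 13848 models had a single exon, of which 7592 (54.8%) had no count in any organ, 3974 (28.7%) had 1 to 19 counts and 2282 (16.5%) had 20 or more. Among 21484 models with 2 or more exons, 1249 (5.81%) had no count and 18327 (85.3%) had 20 or more. A total of 1000 or more counts was found for 399 single-exon models (2.88%), against 13047 multi-exon models (60.7%). A further 1614 single-exon models lay on scaffolds with fewer than 100 models and were left out, and 60 of those had 20 or more counts. The share of single-exon models that reached 20 counts lay between 14.3% and 19.5% on 18 of the scaffolds, and was 9.57% on the smallest, which holds 94 such models. Among the models compared on a scaffold, single-exon models made up between 8.29% and 12.6%.

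The models next to the limit had low levels on both sides of it. There were 64 single-exon models with exactly 20 counts, with a median highest level of 0.579 FPKM, and 36 models with 19 counts, at 0.464 FPKM. The first 3 by position just inside the limit were EA24134, with 0.932 FPKM in skin, EA42524, with 0.240 FPKM in brain, and EA42119, with 0.577 FPKM in gills. Just outside it lay EA41238 and EA46083, with 0.991 and 0.745 FPKM in adipose tissue, and EA39983, with 0.982 FPKM in ovary.

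Single-exon models were short and, at this limit of counts, low. Their exon length had a median of 598 bp with quartiles of 405 and 1035 bp, against a median of 1473 bp with quartiles of 777 and 2545 bp for multi-exon models. The highest level of a model over the 13 organs had a median of 1.71 FPKM (quartiles 0.813 and 7.06) in the single-exon set and of 26.0 FPKM (quartiles 7.36 and 66.2) in the multi-exon set. A highest level of 1 FPKM or more was found in 1539 single-exon models (67.4%), against 94.7% of multi-exon models and 91.6% of all models compared. A level of 10 FPKM was reached by 473 single-exon models (20.7%), against 70.5% of multi-exon models, and 100 FPKM by 86 (3.77%), against 17.1%. Single-exon models lay nearer to the limit of counts, with a median of 82.0 summed counts, against 4337 for multi-exon models. The gap in level hangs on the limit, since with at least 100 counts the medians were 8.35 FPKM in single-exon and 30.8 FPKM in multi-exon models. From 1000 to under 10000 summed counts the medians were 30.0 FPKM in single-exon and 25.9 FPKM in multi-exon models. At 10000 or more they were 141 and 84.5 FPKM. Below 1000 counts single-exon models had the lower median in each class, with 0.732 against 0.778 FPKM from 20 to under 50 counts. From 200 to under 1000 counts it was 5.96 against 6.37 FPKM. Counts grow with length as well as level, and single-exon models had the shorter median length in each class. At like counts a shorter model has the higher FPKM, so these classes cannot tell whether the sets differ in level.

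**Figure D1:**
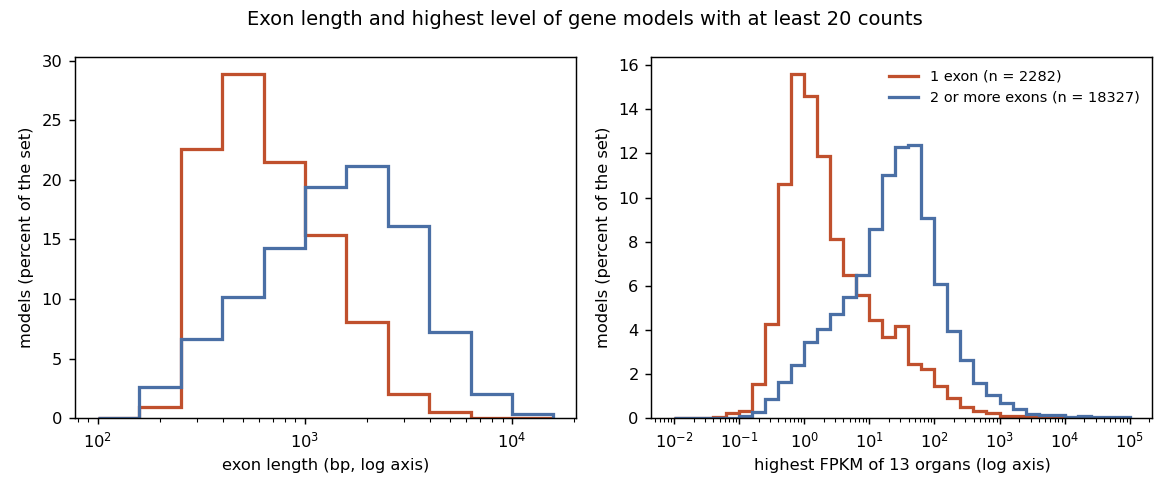
Histograms of exon length (left, bp on a log axis) and of the highest FPKM over 13 organs (right, log axis) for single-exon models (red, n = 2282) and models with 2 or more exons (blue, n = 18327), each as percent of its set. The red curves peak at shorter length and lower level, with medians of 598 bp and 1.71 FPKM, against 1473 bp and 26.0 FPKM for the blue ones.

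Models with more exons had higher levels up to the class of 6 to 10 exons. The median highest level was 1.71 FPKM with 1 exon, 9.41 FPKM with 2 exons, 17.2 FPKM with 3 to 5 exons, 32.4 FPKM with 6 to 10 exons and 30.4 FPKM with 11 or more. Length moved with exon number only in part. Models with 2 exons were about as short as those with 1, at a median of 540.0 bp, and their median level was above that of single-exon models.

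The lower level of single-exon models was seen in every class of exon length. In models under 300 bp the median highest level was 2.93 FPKM for single-exon and 18.6 FPKM for multi-exon models, and from 500 to under 1000 bp it was 1.22 against 21.9 FPKM. The classes in between and above followed, with 1.93 against 13.7 FPKM from 300 to under 500 bp and 1.94 against 31.4 FPKM from 1000 to under 2000 bp. By ratio the medians were closest in models of 2000 bp or more, at 10.3 FPKM for 153 single-exon models and 26.8 FPKM for 6648 multi-exon models. The limit of 20 counts sets a lower bound on FPKM that falls with length, so short models with low levels are missing from both sets.

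**Figure D2:**
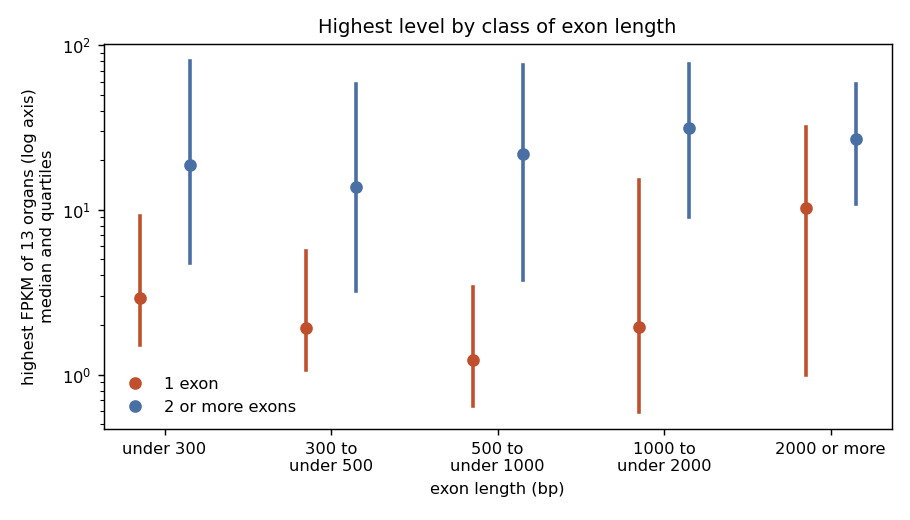
Highest FPKM over 13 organs (log axis) by class of exon length, with the median as a point and the quartiles as a line, for single-exon models (red, left of each pair) and models with 2 or more exons (blue). The red median lies below the blue one in each of the 5 classes, and on this log axis the gap is smallest at 2000 bp or more.

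The length was a multiple of 3 in 79.9% of single-exon models, against 66.5% of multi-exon models. At like length the sets lay closer under 2000 bp, but not at 2000 bp or more. Under 300 bp the length was a multiple of 3 in every single-exon model and 99.3% of multi-exon models. From 300 to under 500 bp it was so for 94.6% and 94.4%, and from 500 to under 1000 bp for 75.8% and 81.3%. It was so for 62.1% of each from 1000 to under 2000 bp and for 64.1% and 50.7% at 2000 bp or more. A coding sequence without untranslated ends has a length that is a multiple of 3, but which models are of this kind was not tested. The plus strand held 50.5% of single-exon models.

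Single-exon models were present across fewer organs. At least 1 FPKM in each of the 13 organs was found for 173 single-exon models (7.58%), against 7157 multi-exon models (39.1%) and 35.6% of all models compared. From 1000 to under 10000 summed counts the shares were alike, at 37.6% of single-exon and 37.2% of multi-exon models, and at 10000 or more they were 60% and 75.4%. No organ reached 1 FPKM for 743 single-exon models (32.6%), against 5.34% of multi-exon models. The number of single-exon models at 1 FPKM or more in a library ranged from 282 in liver and 303 in tongue muscle to 971 in adipose tissue, with 921 in brain and 904 in gills. The same libraries were lowest and highest for multi-exon models, with 9070 models in tongue muscle, 9103 in liver and 14543 in adipose tissue.

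As a share of all assigned counts, single-exon models took between 0.315% in liver and 2.11% in kidney, with a median of 1.55% over the 13 libraries, while they are 11.1% of the models. In liver the exact 95% interval on pairs of counts was 0.312% to 0.318%, which covers counting error only. Tongue muscle also stood low, at 0.449%, and gills stood second highest, at 2.04%. Liver and tongue muscle had the lowest TMM factors, at 0.288 and 0.322, a scaling given below that discounts libraries dominated by a few genes. Shares of a library and models at 1 FPKM are not scaled in this way. Whether such genes set the low values of these 2 libraries was not tested. The 10 highest single-exon models of a library made up between 34.8% of the single-exon counts in ovary and 69.3% in slime gland. In slime gland 1 model, EA58042, held 26.9% of them, and without it the single-exon share of that library was 1.24% instead of 1.69%.

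The organ of highest level was described next. The limit on summed counts names no organ, but models with few counts can pass it through the organ where they are highest. Single-exon models were most often highest in adipose tissue (448 models, 19.6%), gills (441, 19.3%) and brain (334, 14.6%). Of multi-exon models 15.5%, 13.2% and 11% were highest there, and of all models compared 16%, 13.9% and 11.4%. Adipose tissue, gills and brain had the fewest assigned counts (22235263, 18800367 and 20805399), so 1 count adds the most FPKM there at a given length. Single-exon models had few counts, and whether library size set these shares was not tested. Ovary, the commonest organ of multi-exon models, was highest in 237 single-exon models (10.4%), against 23.4% of multi-exon models and 21.9% of all. Skin was highest in 103 single-exon models (4.51%), against 2.89% of multi-exon models and 3.07% of all, and slime gland in 81 (3.55%), against 2.32% and 2.46%. Liver was highest in 11 single-exon models (0.482%), against 1.31% of multi-exon models and 1.22% of all. Blood cells were highest in 6.57% of single-exon models, against 8.32% of multi-exon models and 8.13% of all, and gall bladder in 4.6%, against 5.49% and 5.40%. The other 4 organs differed little between the sets. Kidney was highest in 7.27% of single-exon models, heart in 4.56%, intestine in 2.89% and tongue muscle in 1.58%, beside 7.14%, 4.69%, 3.11% and 1.62% of all models.

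Without the adipose library brain was highest in 555 single-exon models (24.3%), against 22.2% of multi-exon models and 22.4% of all, so that the difference between the sets was smaller there than with both libraries counted together, at 34.3% against 26.5%. Gills were then highest in 504 single-exon models (22.1%), against 14.2% of multi-exon models and 15.1% of all, and ovary in 262 (11.5%), against 24.5% and 23.1%. Among models of at least 10 FPKM, with all 13 libraries, gills were highest in 14% of single-exon and 12.4% of multi-exon models and ovary in 16.9% and 25%.

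**Figure D3:**
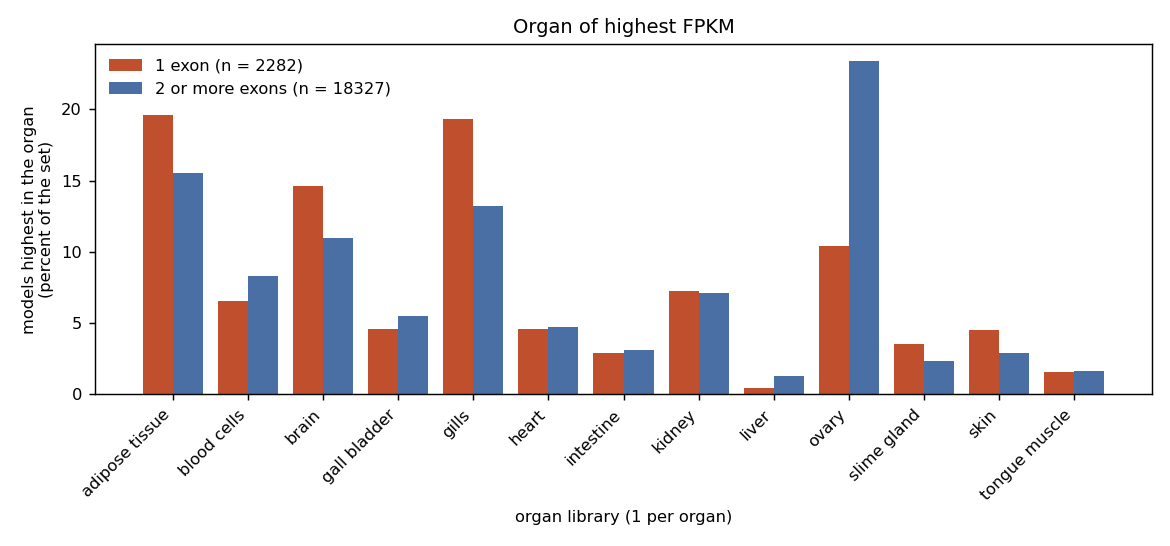
Percent of models whose FPKM was highest in each of the 13 organ libraries, for single-exon models (red, left bar, n = 2282) and models with 2 or more exons (blue, right bar, n = 18327). The red bar is taller in adipose tissue, brain and gills, and the blue bar is taller in ovary, at 23.4% against 10.4%.

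These shares depend on how the libraries are scaled. edgeR's TMM factors, which discount libraries dominated by a few genes, ranged from 0.288 in liver to 1.83 in ovary, and with them 1478 single-exon models (64.8%) had the same highest organ as before. The share of single-exon models highest in ovary was then 5.08%, against 11.9% of multi-exon models, and in gills 10.3%, against 6.72%. Liver was highest in 7.93% of single-exon and 8.78% of multi-exon models and slime gland in 8.72% and 6.33%. Single-exon models thus stayed above multi-exon models in adipose tissue, brain, gills, skin, slime gland and kidney and below them in ovary, liver and blood cells under this scaling, while in heart the order of the 2 sets turned round. Of the 53 models named below for their level, length or symbol, 42 had the same highest organ under TMM and DESeq2 factors. The 11 others were EA47428, EA09972, EA78494 (with DESeq2 factors only), EA84928, EA22902, *INHBB-2*, *THAP9-5*, *PSMD2-1*, *ZMYM6-3*, *AHNAK-1* and *AHNAK-3*.

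Organ-specificity was measured by tau over the 9 organs of the study's methods, without adipose tissue, blood cells, gall bladder and slime gland. Tau is 0 for a level that is the same in every organ and 1 for a level in a single organ. Of the 1399 single-exon models with 1 FPKM in one of these organs, 420 (30.0%) had a tau of at least 0.8, against 3065 multi-exon models (18%) and 18.9% of all models measured. The median tau was 0.659 in single-exon and 0.460 in multi-exon models. Of the 420 models, 161 (38.3%) were highest in brain, 81 (19.3%) in gills, 51 in ovary, 37 in kidney and 4 in liver. Of the organ-specific multi-exon models, 38.2% were highest in brain, 11.7% in gills and 18% in ovary.

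The number of counts moved with tau. In the class of 20 to under 50 summed counts 74.5% of single-exon and 78.4% of multi-exon models had a tau of at least 0.8. From 50 to under 200 counts it was 34.4% against 49.6%, and from 200 to under 1000 counts 18.9% against 33.2%, so that single-exon models had the lower share in these classes. From 1000 to under 10000 counts the shares were 14.6% and 14.7%, and at 10000 or more 12.5% of 80 single-exon models and 6.0% of 5819 multi-exon models. The higher share over all single-exon models thus did not hold within the classes of summed counts below 10000.

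**Figure D4:**
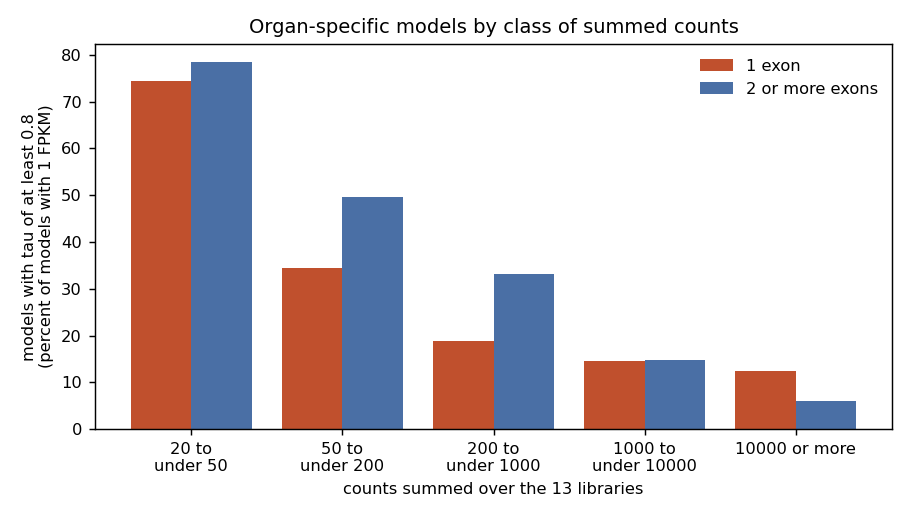
Percent of models with a tau of at least 0.8, among those with at least 1 FPKM in one of 9 organs, by class of counts summed over 13 libraries, for single-exon models (red, left bar) and models with 2 or more exons (blue, right bar). The share falls from 74.5% to 12.5% in single-exon models as counts grow, and the red bar is above the blue one only in the class of 10000 counts or more. In the lowest class only 188 of 797 single-exon models reached 1 FPKM and entered, so its share is partly set by that filter.

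A call that depends on level as well was made next. A level at least 10-fold above the median of the other 12 organs, with 1 FPKM added to each, was found in any organ for 175 single-exon models (7.67%), against 3455 multi-exon models (18.9%) and 17.6% of all. Without the adipose library it was 172 single-exon models (7.54%). Of the 175 models, 51 were called in both brain and adipose tissue. In brain 56 single-exon models (2.45%) were called, against 5.39% of multi-exon models and 5.06% of all. In gills 29 (1.27%) were called, against 3.42% and 3.18%, and in skin and kidney 24 each (1.05%), against 1.77% and 2.26% of multi-exon models and 1.69% and 2.13% of all. The adipose library had 62 calls (2.72%, against 5.42% of all), ovary 26 (1.14%, against 2.66%), slime gland 17 (0.745%, against 1.65%) and gall bladder 11 (0.482%, against 1.81%). Intestine had 10 (0.438%, against 1.99% of all), heart and tongue muscle 8 each (0.351%, against 1.53% and 1.07%), blood cells 4 (0.175%, against 0.995%) and liver 2 (0.0876%, against 1.17%). With 1 FPKM added, the call cannot be reached at low levels, where most single-exon models lie. Among models of at least 10 FPKM 172 of 473 single-exon models (36.4%) were called, against 3425 of 12918 multi-exon models (26.5%) and 26.9% of all. That filter is on the highest level of a model, which the call also uses, so the 2 are not independent. With 0.1 FPKM added in place of 1, 574 single-exon models (25.2%) passed, against 30.1% of multi-exon models.

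The single-exon models of highest level, which are described one by one below, carry no gene name in the sources used here, because the name table at hand covers chromosome 1 only. The highest of all was EA60146, of 306 bp on chromosome 4 (scaffold ScMYAQb_1693, 117146834 to 117147139, plus strand). It had 9101 FPKM in kidney and 6135 FPKM in gills, a median of 3508 FPKM and its lowest level, 932 FPKM, in tongue muscle. It was thus abundant in each of the 13 libraries, with a tau of 0.117, and was the single-exon model with the most counts in blood cells, gills, intestine, liver and ovary. A second abundant model, EA58434, lies downstream on the same strand (117147742 to 117147990, 249 bp). It had 2984 FPKM in kidney, a median of 1113 FPKM and 241 FPKM in tongue muscle, the same highest, second and lowest library as EA60146. On the opposite strand 2 further single-exon models lie 119 and 120 bp from these, EA59419 with at most 163 FPKM and EA57430 with at most 44.4 FPKM. Strand was not used in counting, but these models do not overlap.

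In slime gland, the organ that makes the defensive slime of hagfishes, 2 single-exon models on chromosome 4 stood out. EA58042 (564 bp, 87543789 to 87544352, plus strand) had 131768 counts or 8074 FPKM in slime gland, 2.22 FPKM in brain as the next library and a median of 0.140 FPKM. The ratio of slime gland to brain was 3644, with a 95% counting interval of 2131 to 6844. EA63299 (656 bp, 87593621 to 87594276, minus strand) had 5695 FPKM in slime gland, 1.90 FPKM in brain and a median of 0.0780 FPKM, and 5 libraries had no count. Both lie beside spliced models of the same strand that were also highest in slime gland. EA58042 ends 31 bp before the 9-exon model EA58776, which had 41259 FPKM there, and EA63299 lies 145 bp from the 4-exon model EA61376, with 11808 FPKM.

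Skin was the highest library of 2 abundant models that were next highest in gills, another surface tissue. EA11807 on chromosome 10 (369 bp) had 5360 FPKM in skin, 2289 FPKM in gills and a median of 2.69 FPKM, and lies 718 bp from the 4-exon model EA11882, with 2735 FPKM in skin. EA65314 on chromosome 8 (408 bp) had 1093 FPKM in skin and 44.1 FPKM in gills, a ratio of 24.8 (95% counting interval 21.3 to 29.1). It had no count in 7 libraries. Its neighbour on the other strand, the 6-exon model EA68235, was also highest in skin, at 283 FPKM. Among single-exon models highest in gills, the top 2 were EA40204 (632 FPKM, with 154 FPKM in skin) and EA84928 (596 FPKM, with 398 FPKM in skin). All 4 of these models thus shared gills and skin as their first 2 libraries. They were picked among models highest in skin or gills, and EA60146 had more in gills, at 6135 FPKM. With TMM factors the order of the 2 organs turned round for EA84928, with 409.8 FPKM in skin.

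Kidney and intestine were likewise paired in 3 models. EA32973 on chromosome 7 (1508 bp, 140048148 to 140049655, minus strand) had 1869 FPKM in kidney, 124 FPKM in intestine and a median of 0.212 FPKM, a ratio of 15 between the first 2 (95% counting interval 14.5 to 15.7). It was the single-exon model with the most counts in the kidney library and held 13.4% of the single-exon counts there. EA82853 on chromosome 15 (630 bp) had 831 FPKM in intestine and 667 FPKM in kidney, with a median of 0.286 FPKM. EA19891 on chromosome 13 (2162 bp) had 209 FPKM in intestine and 68.8 FPKM in kidney and less than 1 FPKM in the other libraries.

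In brain and in the adipose library that resembles it, 2 neighbouring models on chromosome 12 were high. EA70899 (1826 bp, minus strand) had 999.7 FPKM in brain and 965 FPKM in adipose tissue, with a median of 0.517 FPKM. EA70749, 437 bp away on the plus strand, had 560.0 FPKM in adipose tissue and 543 FPKM in brain, a ratio of 1.03 with a 95% counting interval of 0.993 to 1.07. Their levels went together over the 13 libraries (Pearson r of 0.997 on log2(FPKM + 1)). EA20700, the next among models highest in brain, was present everywhere, with 253 FPKM in brain, a median of 79.7 FPKM and 14.6 FPKM in tongue muscle.

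Heart was highest in EA07125 on chromosome 16 (2326 bp), with 1025 FPKM in heart, slime gland as the next library and a median of 56.3 FPKM. The ratio of heart to slime gland was 2.05 (95% counting interval 2.02 to 2.09). EA53385 had 288 FPKM in heart and 167 FPKM in adipose tissue. The longest single-exon model, EA53779 on chromosome 14 (14094 bp, 49887468 to 49901561, plus strand), had 145 FPKM in heart, 90.2 FPKM in ovary and a median of 37.8 FPKM, and 217691 counts in all, second to EA60146. It starts 81 bp after the 24-exon model EA53253 on the same strand, which had at most 2.15 FPKM, also in heart. The next longest, EA22280 (6618 bp) and EA77789 (5981 bp), had at most 0.0680 and 24.3 FPKM.

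In the remaining organs the highest single-exon models ranged from restricted to widespread ones. In ovary EA49793 on chromosome 9 had 173 FPKM, with 50.4 FPKM in brain, and EA61672 on chromosome 4 (1711 bp) had 149.9 FPKM, with 8.41 FPKM in adipose tissue and a median of 0.0405 FPKM. The ratio for EA61672 was 17.8 (95% counting interval 15.2 to 21.0), and 5 libraries had no count. Liver was the highest library of the fewest models. The top 2 of these were EA00405, with 43.6 FPKM in liver and 14 FPKM in ovary, and EA65171. EA65171 had 29.8 FPKM in liver, 20.6 FPKM in intestine and at least 1.20 FPKM in every library. The widespread model EA60146 had more in liver, at 1511 FPKM. In tongue muscle EA80512 had 189.7 FPKM, with 128 FPKM in ovary and at least 22.0 FPKM in every library, and EA69407 had 90.2 FPKM, with 64.8 FPKM in slime gland.

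Some abundant models were present in each of the 13 libraries. EA47428 on chromosome 9 (1337 bp) had 767 FPKM in blood cells, a median of 372 FPKM and 178 FPKM in tongue muscle. EA09972 on chromosome 10 (1185 bp) had 601 FPKM in blood cells, a median of 271 FPKM and 92.9 FPKM in tongue muscle. Their tau was 0.0726 and 0.0806, and with TMM factors both were highest in liver instead. EA78494 on chromosome 3 (620 bp) had 1763 FPKM in gall bladder, 1425 FPKM in brain and a median of 534 FPKM, with 50.5 FPKM in liver. EA82153 had 139.8 FPKM in adipose tissue and 131 FPKM in brain and at least 12.3 FPKM in every library. EA32014, the other model of gall bladder, was not of this kind, with 465 FPKM there, 124 FPKM in ovary and no count in blood cells.

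**Figure D5:**
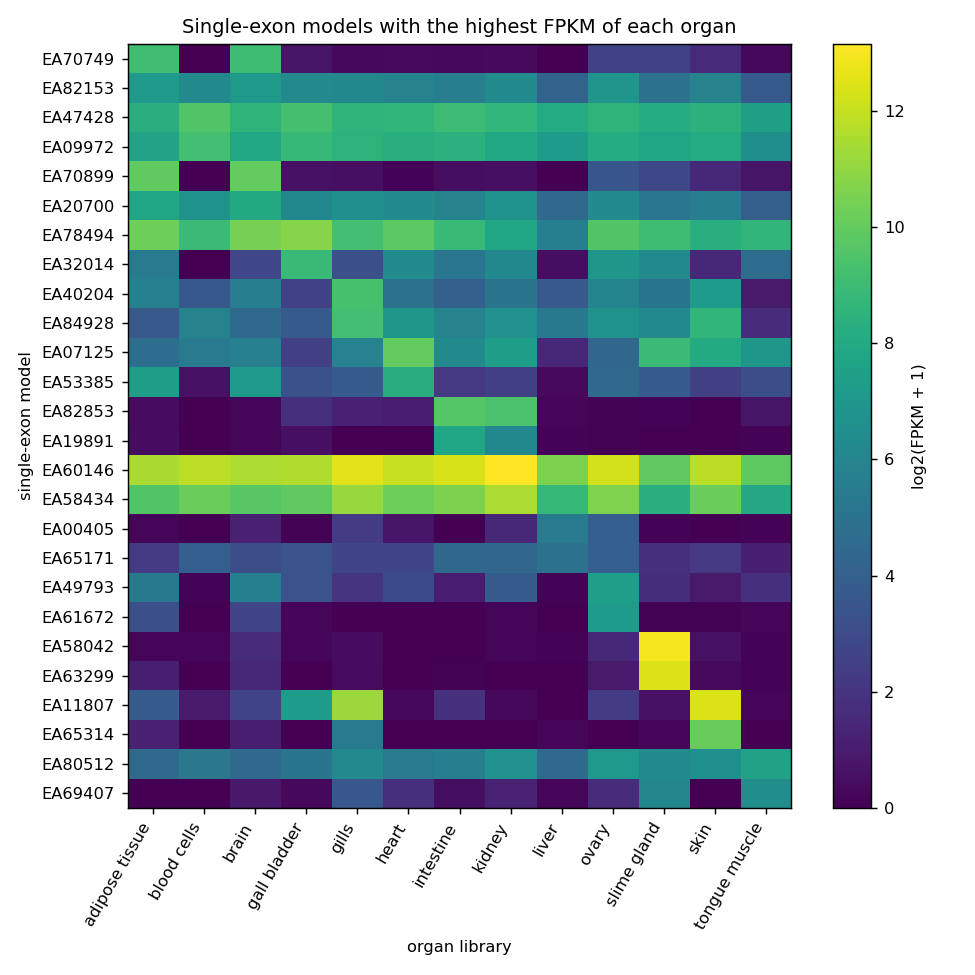
Level as log2(FPKM + 1) of the single-exon models with the 2 highest FPKM among those highest in each organ (rows, grouped by highest organ) in the 13 libraries (columns, adipose tissue first). Bright rows such as EA60146, EA58434, EA47428 and EA78494 span all libraries, while EA58042 and EA63299 are bright in slime gland alone and EA70749 and EA70899 in adipose tissue and brain.

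On chromosome 1, 163 single-exon models with 20 or more counts could be joined to the study's name table, of 192 on its 2 scaffolds. A gene symbol was given to 22 of them (13.5%) and a Pfam protein domain to 27 (16.6%), against 73.1% and 71.1% of 1205 multi-exon models. Single-exon models with a domain were longer, with a median of 1137 bp, against 596 bp for those without one, and had a median highest level of 1.87 FPKM, against 1.22 FPKM. Multi-exon models differed in the same direction, at 1806 against 727 bp and 31.2 against 10.9 FPKM. With no minimum of counts, the 518 single-exon models in the name table had a median of 0.243 FPKM with and without a domain. Symbols in this table are matches to genes of other species, and the roles below are those known from other vertebrates.

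Transcription factors were few, and all 4 single-exon models with such a domain had 20 or more counts, against 18 of 22 multi-exon models and 31.5% of the single-exon models in the name table. *TWIST2-2*, a basic helix-loop-helix factor of mesenchyme and dermis, had 53.8 FPKM in skin, 1.5 FPKM in gills and a median of 0.0499 FPKM. Its ratio of skin to gills was 35.7 (95% counting interval 21.9 to 68.0). *SOX14-1*, a Sox factor of neurons, had 38.6 FPKM in adipose tissue and 36.2 FPKM in brain, and no other library reached 1 FPKM. *FOXD3-2*, a forkhead factor of the neural crest, had 1.40 FPKM in brain and 0.828 FPKM in adipose tissue, with counts in each library. EA22902, which carries the Jun and bZIP domains of the AP-1 factor Jun, had 31.8 FPKM in gills, 24.5 FPKM in adipose tissue, a median of 13.6 FPKM and 0.40 FPKM in tongue muscle, and was highest in heart with TMM factors. It is named here after its values were seen.

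Of 7 single-exon models with domains of receptors, channels or secreted signals, 6 had 20 or more counts, against 33 of 35 multi-exon models. *S1PR3-1*, a receptor for the lipid sphingosine 1-phosphate, had 41.4 FPKM in adipose tissue, 24.5 FPKM in gills and a median of 7.01 FPKM. *GPR173-3*, an orphan G protein-coupled receptor, had 19.6 FPKM in brain, 16.3 FPKM in adipose tissue and a median of 2.54 FPKM. *INHBB-2*, a subunit of inhibins and activins, had 29.6 FPKM in ovary, 22.6 FPKM in intestine and a median of 0.420 FPKM, and was highest in intestine with TMM factors. Of the 6 models 5 were highest in adipose tissue or brain, against 6 of the 33 multi-exon models. Over all models compared it was 34.3% of single-exon and 26.5% of multi-exon models. Without the adipose library *S1PR3-1* was highest in gills. *TSPAN7*, a tetraspanin, had 9.32 FPKM in adipose tissue and 5.93 FPKM in brain. *SFRP5-1*, a secreted Wnt inhibitor, and *KCND2-3*, a potassium channel, had 8.36 and 1.66 FPKM in brain and no count in 9 libraries each. The seventh model, *FLRT1-3*, had 4 counts in all.

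Mobile element domains were the commonest of the lists among single-exon models. Of 52 single-exon models with a domain or symbol of reverse transcriptases, integrases or transposases, 18 had no count and 11 (21.2%) had 20 or more, against 25 of 34 multi-exon models (73.5%). Of all 518 single-exon models in the name table, 158 (30.5%) had no count and 163 (31.5%) had 20 or more, against 16.5% with 20 or more over all single-exon models of the 19 scaffolds. Of the 1353 multi-exon models named there 89.1% had 20 or more. The 11 models had a median highest level of 0.963 FPKM, and none reached 10 FPKM. The median was 1.71 FPKM over all single-exon models compared, and 1.22 and 1.40 FPKM on the scaffolds of chromosome 1. The 25 multi-exon models had a median of 6.18 FPKM, and 10 reached 10 FPKM. *ZBED9-8*, with a transposase-derived symbol, was the highest, at 5.32 FPKM in adipose tissue and 2.95 FPKM in brain. It lies within the 36-exon model EA37235 on the other strand, which was also highest in adipose tissue. *THAP9-5* had 1.53 FPKM in adipose tissue and 1.30 FPKM in blood cells, and *ZBED9-9* had at most 0.598 FPKM. The study had removed models whose exons overlapped repeats beyond a set share before counting, so this list holds what was left.

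Other models with a symbol on chromosome 1 fell outside the lists above. *RBM4-2*, an RNA-binding splicing regulator, had 179 FPKM in blood cells, a median of 90.0 FPKM and 16.7 FPKM in liver. *WDR83*, a WD40 repeat protein, had 21.5 FPKM in ovary and 5.52 FPKM in blood cells, a ratio of 3.89 (95% counting interval 3.07 to 4.98). *ACTL7A*, an actin-like gene known from the testis of mammals, had 18 of its 38 counts in ovary. *SAMD1-1* had 2.45 FPKM in adipose tissue and 2.29 FPKM in brain, and *ZMYM6-3* and *GTF2IRD2-8* had at most 0.542 and 1.10 FPKM. Symbols also recurred in adjacent models. *PSMD2-1* and *PSMD2-4*, named for one proteasome subunit, lie 54 bp apart on the same strand, with 1.10 and 1.77 FPKM in gall bladder. *AHNAK-1* and *AHNAK-3* lie 1124 bp apart, with 1.16 and 0.332 FPKM in gills.

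Position relative to other models was examined because counting ignored strand. Of the 2282 single-exon models 399 (17.5%) overlapped the span of another model, against 17.3% of multi-exon models, and 38 (1.67%) overlapped an exon of one, against 6.65%. A total of 375 (16.4%) lay wholly within the span of a spliced model, 140 on its strand and 235 on the other. The share that lay within a spliced model was 21.2% at 20 to under 50 summed counts and 2.5% at 10000 or more. Single-exon models with fewer than 20 counts lay within a spliced model in 15.3%. Since strand was not used, reads of such a model and of an intron of the surrounding one cannot be told apart.

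Models within a spliced model had a median highest level of 1.24 FPKM, against 1.87 FPKM for 1883 single-exon models that overlapped nothing. The surrounding model had the higher level in 342 of 375 cases. Multi-exon models had a median of 26.0 FPKM in general, and of several surrounding models that with the most counts was taken. The highest organ was the same in 85 of the 375 (22.7%), with 23.6% on the same strand and 22.1% on the other. Without the adipose library it was the same in 24.5%, with 22.1% on the same strand and 26.0% on the other. As a background with all libraries, single-exon models shared the highest organ with a nearest model that did not overlap in 48.6% under 1000 bp. It was 21.6% from 1000 to under 10000 bp, 25.7% from 10000 to under 100000 bp and 20.2% beyond. Multi-exon models whose nearest model overlapped them shared it in 28.4%. Gills were highest in 24.3% of the models within a spliced model and in 18.5% of those that overlapped nothing, and ovary in 6.67% and 11%.

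Single-exon models often lay close to another counted model. The nearest model with 20 or more counts lay less than 1000 bp away, without overlap, for 529 single-exon models (23.2%), against 3436 multi-exon models (18.7%). It was on the same strand in 68.4% of these cases, against 62.8% for multi-exon models. The neighbour was itself a single-exon model in 209 of the 529 cases, against 330 of the 3436 for multi-exon models. From 1000 to under 10000 bp the same strand was found in 49.6%, against 54.3%.

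Levels of close neighbours often rose and fell together over the organs, though the levels themselves could be far apart. Where both models had 200 or more counts, the Pearson correlation of log2(FPKM + 1) over the 13 libraries had a median of 0.927 over 210 single-exon models with a neighbour under 1000 bp away, against 0.871 over 2770 multi-exon models. It reached 0.9 in 125 of the 210 (59.5%), against 44.5% for multi-exon models. At 1000 to under 10000 bp the median was 0.604 over 164 single-exon models and at 10000 to under 100000 bp 0.524 over 158, against 0.654 and 0.544 for multi-exon models. The 13 points of each pair come from the same libraries, with adipose tissue and brain, which resemble each other, both among them. A pair of 2 single-exon models is counted from both sides. The highest organ was the same as that of a neighbour under 1000 bp away in 48.6% of single-exon models, against 21.6% at 1000 to under 10000 bp. For multi-exon models it was 44.8% and 29.3%, so both sets shared the fall with distance.

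Many of the abundant models named above were of this kind. The correlation with the nearest model was 0.998 for EA40204 and the 3-exon model EA43659, 888 bp apart, 0.993 for EA58042, 0.992 for EA63299, 0.990 for EA20700, 0.986 for EA65314 and 0.965 for EA80512. EA53385 lies 1024 bp from a 2-exon model on the other strand, with a correlation of 0.997. Not all close pairs went together. EA69615, 558 bp from the 3-exon model EA70205, had at most 51.2 FPKM, in tongue muscle, while EA70205 was highest in gall bladder, with a correlation of -0.02. Among overlapping models, EA60003, which lies within the 43-exon model EA57885 on the other strand, had 166 FPKM in intestine, while EA57885 was highest in adipose tissue, with a correlation of -0.30. EA32973, EA61672, EA07125 and *TWIST2-2* had no model with 20 or more counts within 1000 bp.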

How the data were processed

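RNA of 13 organs was sequenced by the authors as strand-specific TruSeq libraries of paired 150-base reads. Per the labels and the file headers, reads were aligned with STAR (2.5.2b) and counted over exons with featureCounts (1.6.1, while the paper's methods name another version). The deposited values are raw counts of read ends per gene model, without normalization, with no paired or strand option set. Multi-mapping reads were left out by default, so near-identical copies are uncertain. The authors had built the models partly from these libraries and partly from full-length cDNA of brain. Whether this brain source bears on the shares of models highest in brain was not tested. They had removed models whose exons overlapped repeats beyond a set share. The genome build's name is not given in the sources used here.

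Each count was turned into FPKM with the exon length and the assigned total of its library (18800367 to 39077785). Tau used log2(FPKM + 1) over 9 organs and models reaching 1 FPKM there. The 10-fold call used a pseudocount of 1 FPKM. Intervals (Clopper-Pearson, 95%) were computed on pairs of counts, because 83.6% of counts from 1 to 4 were even, and cover counting error only. Scaffolds were placed on chromosomes, and chromosome 1 models named, by ID from the study's source tables. Of 1998 rows with names, 127 whose span differed from the model's were left out. The columns used are those of the 13 samples.

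Members, lists and thresholds were chosen with earlier results of these data known. Models named are the 10 with the highest FPKM and the 2 of highest FPKM among the models highest in each organ. Those with a symbol, the 3 longest, the 3 with most counts and 3 on each side of the limit are also named. EA22902, EA60003, EA69615 and neighbouring models were named after their values were seen. Alternatives were TMM (edgeR 4.0.16) and DESeq2 (1.42.0) factors, other filters, scales, organ sets and definitions. Tau was tested on simulated data with peaks planted only in single-exon models of 5 FPKM or more, so lower levels were not covered. Software was matplotlib 3.10.9, scipy 1.17.1, pandas 2.3.3, numpy 2.4.6, Python 3.11.15 and R 4.3.3.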

Additional observations from a re-analysis of the deposited data

How the results depend on the processing

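Of 54 alternative values, 27 moved, and in none that had a multi-exon value did the order of single-exon and multi-exon models turn round. The share of assigned counts had no multi-exon value, so it had no order to turn round. Classes of summed counts and models of at least 10 FPKM were not among these values. Of the organ shares, only those of ovary, gills and brain or adipose tissue were. The share highest in heart was 4.56% in single-exon and 4.71% in multi-exon models. That order turned round with TMM factors, at 6.75% against 6.48%, and with DESeq2 factors, at 6.75% against 6.29%. At 10 FPKM or more, a filter on the same highest level that the call uses, the share past 10-fold was higher in single-exon models. It was 36.4% against 26.5%. In the classes below 1000 summed counts their share with a tau of at least 0.8 was the lower one. The median exon length of single-exon models was 450.0 bp with no minimum of counts and 771 bp with at least 100. Their median highest level was 0 and 8.35 FPKM under the same 2 choices, 1.87 FPKM among models overlapping no other, 1.39 FPKM with TMM and 1.40 FPKM with DESeq2 factors. The share highest in ovary was 13.1% with at least 100 counts, 5.08% with TMM and 4.95% with DESeq2 factors. The share highest in gills was 16.4% with no minimum, 16.7% with at least 100 counts, 10.3% with TMM, 10.6% with DESeq2 factors and 22.1% without adipose tissue. The share highest in brain or adipose tissue was 22.3% with TMM, 22.2% with DESeq2 factors and 24.3% without adipose tissue. The share with a tau of at least 0.8 was 47.9% on linear FPKM, 31.7% with no FPKM filter (721 models, against 420), 23.3% at 5 FPKM or more and 17.6% with a pseudocount of 0.1. The share past 10-fold was 25.2% with a pseudocount of 0.1 FPKM. Among models with no counted model within 1000 bp, a choice made after seeing the data, the median length was 642 bp, 36.5% were highest in brain or adipose tissue, 32.1% had a tau of at least 0.8 and 6.91% passed 10-fold. Fewer models enter under the stricter filters, and the other causes were not tested. With 1 library per organ no library could be left out as a replicate. No paired analysis was possible because each organ has a single library.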
